A study of Mus musculus with 32 samples.

Results

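The genes of the lateral junctions of the retinal pigment epithelium (RPE) were followed in bulk RNA prepared from the RPE of mouse eyes. They were 9 in number, out of 34453 rows of the count table, and were chosen as the rows whose Ensembl identifiers map to the symbols *Cdh1*, *Cdh2*, *Cdh3*, *Ctnnb1*, *Tjp1*, *Ocln*, *Cldn1*, *Cldn3* and *Cldn19*. All 9 were found, and all 9 passed the filter on low counts in each of 5 comparisons. The rule selects by symbol and uses no measured value, although the genes were picked with earlier results of these data known. The 32 libraries came from both eyes of 16 mice labelled *rd1*, a strain that loses its rods through a mutation of *Pde6b*, with 7 mice at P20 and 9 mice at P40. One eye of each mouse, the Nrf2 eye, carried AAV-Best1-Nrf2 beside AAV-Best1-GFP, whereas the control eye opposite carried AAV-Best1-GFP alone, so both eyes had been injected and both made GFP from the same promoter. By the methods, the Nrf2 eye also received a larger total vector dose and a vector with another capsid. Nrf2, dose and capsid therefore cannot be told apart between the eyes. The Best1 promoter is meant to confine the human transgene to the RPE. The strain at P40 was taken from the labels, although the methods describe fewer pairs of that strain than the labels do, at either age, and further pairs of the strain CD1 at P40. Whether all P40 mice were of the labelled strain was not tested, and this bears on every comparison of P40 with P20. No uninjected eye and no RPE labelled as wild type was among the libraries.

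Epithelial cells are held together side by side by 2 belts. In the adherens junction, cadherins of neighbouring cells bind each other outside the cell and β-catenin inside it, which links them to actin. In the tight junction, claudins and occludin seal the gap between cells, and the scaffold ZO-1 ties them to the same actin belt. In the RPE these belts form the outer blood-retina barrier, and they outline the hexagons that become distorted as the retina degenerates. P-cadherin (*Cdh3*) and claudin-19 (*Cldn19*) are the forms usually associated with RPE, N-cadherin (*Cdh2*) is shared with neural and mesenchymal cells, and E-cadherin (*Cdh1*), claudin-1 (*Cldn1*) and claudin-3 (*Cldn3*) are found in many epithelia, those of the ocular surface included.

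Levels are in CPM, the count of a gene divided by the normalized size of its library so that libraries of unequal depth can be set side by side, and comparisons between genes are in CPM per kilobase of annotated exon. Libraries held 16548332 to 50542797 estimated counts. RPE genes were abundant: all 9 RPE markers had more than 3 counts in every library, with *Rpe65*, the visual cycle isomerase, at 134 to 3572 CPM, although the gene whose promoter was used for the vectors, *Best1*, had only 0.272 to 4.17 CPM. RNA of other tissues was also present. Keratins and other markers of the ocular surface epithelium (*Krt5*, *Krt14*, *Krt12*, *Krt15*, *Krt4*, *Krt13*, *Trp63* and *Epcam*, none at the floor of 3 counts in any library) summed to between 422 and 55368 CPM. In bulk RNA, fewer cells of a type and less RNA per cell cannot be told apart.

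The transgene, human *NFE2L2*, marked the Nrf2 eye in every pair, 7 of 7 at P20 and 9 of 9 at P40, with log2 fold changes of 7.36 (SE 1.74, adjusted p = 0.0601 from edgeR) and 13.28 (SE 1.70, adjusted p = 0.000672). Several control eyes also had counts of it, beside that of P20 mouse 3 described below. It had 154, 66.3 and 47.2 CPM in the control eyes of P20 mice 5, 4 and 2. In those of P40 mice 8 and 5 it had 99.0 and 49.0 CPM. The remaining control eyes had 7.17 CPM or less at P20 and 1.46 CPM or less at P40. The source of these counts was not tested. A pair of P20 libraries stood apart. The library labelled control of mouse 3 had 1098 CPM of *NFE2L2* and the library labelled Nrf2 of mouse 4 had 1082 CPM, so that each was at odds with its group. These 2 libraries also differed from each other by 6.58 times sampling noise, against 33.2 times for the next closest pair. Their junction genes were alike too, with *Cdh1* at 204 and 192 CPM and *Cldn3* at 82.6 and 83.6 CPM. The Nrf2 estimates at P20 of all 9 genes, and part of the results with age, are therefore also given without mice 3 and 4. The covariate fits and the correlations below were not run without both of these mice.

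To compare the genes with each other, levels were divided by exon length. In P20 control eyes the order was *Cldn1* (90.1 ± 22.8 CPM per kb, SD, n = 7), *Ctnnb1* (81.5 ± 9.67), *Cldn3* (61.1 ± 44.0), *Cdh1* (34.5 ± 25.4), *Cdh3* (27.6 ± 6.93), *Ocln* (11.2 ± 4.33), *Tjp1* (7.47 ± 1.34), *Cdh2* (3.89 ± 2.10) and *Cldn19* (2.97 ± 1.51). *Cldn3* was above *Cdh1*, and *Cdh3* was above *Ocln*, in 7 of 7 eyes, whereas *Cdh1* was above *Cdh3* in 4 of 7 and *Cdh2* above *Cldn19* in 4 of 7. Neighbours in the order were thus separated within eyes in only some steps. The claudin with the highest level was *Cldn1* at P20, and the RPE-associated *Cldn19* was the lowest of the 9 genes per kilobase in all 4 groups. In P40 control eyes *Cdh3* had 14.2 ± 14.7 CPM per kb (n = 9), next to *Cdh1* at 16.97 ± 9.65, and in P20 Nrf2 eyes *Cdh3* had 38.9 ± 10.1 (n = 7), above *Cldn3* in 5 of 7 eyes.

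The genes differed greatly in how steady they were. Over all libraries the highest level of *Ctnnb1* was 2.39 times the lowest, and the range was 6.69-fold for *Cdh2*, 7.61-fold for *Ocln*, 8.00-fold for *Tjp1*, 11.9-fold for *Cldn1* and 24.3-fold for *Cdh3*. It reached 52.9-fold for *Cldn3* and 61.9-fold for *Cdh1*. *Cldn19* went from 0.0416 CPM (1 count, at the floor) to 34.2 CPM.

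**Figure D1:**
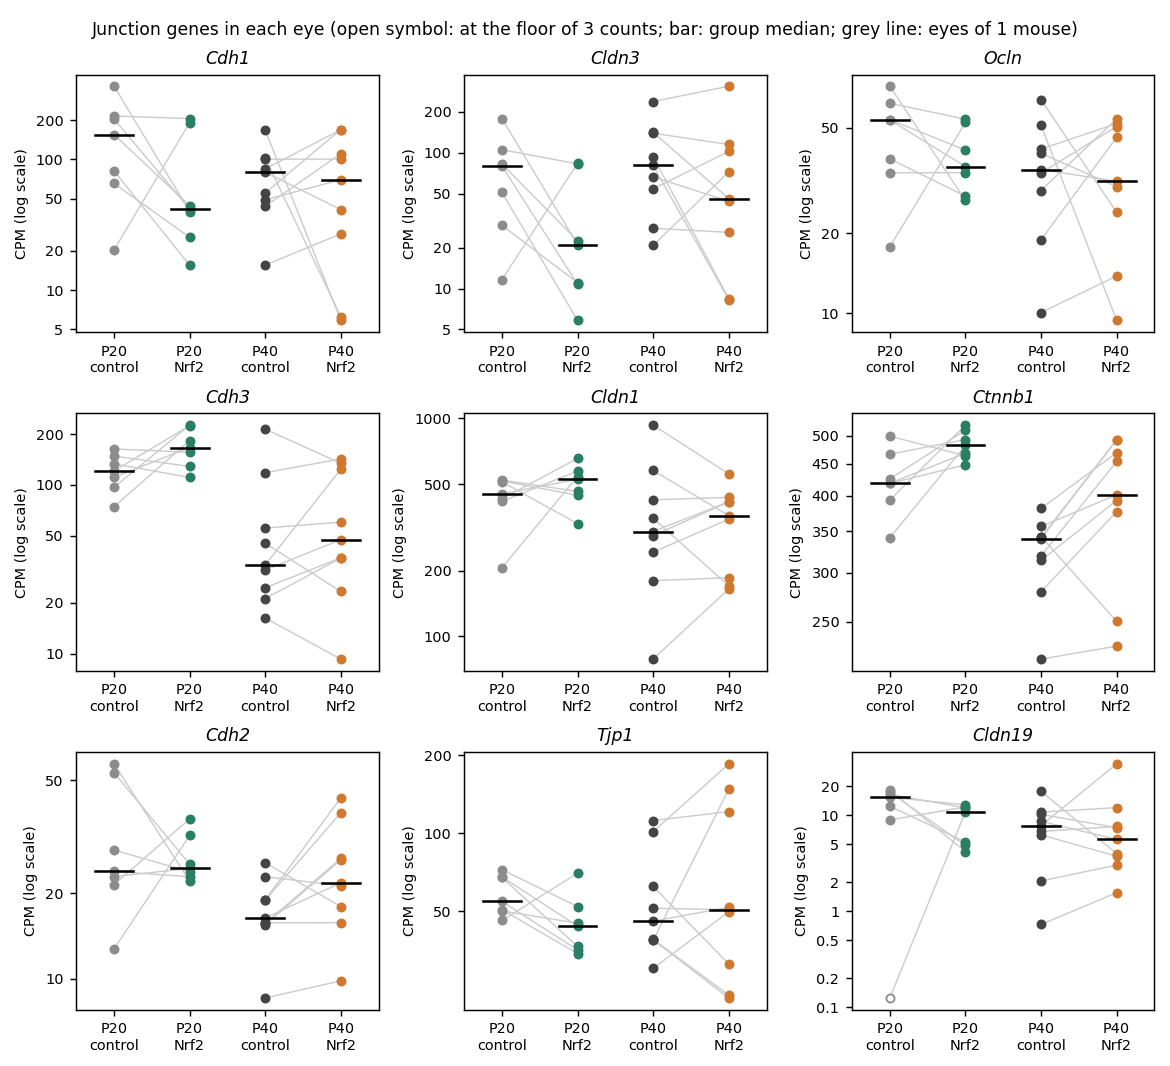
Level of each junction gene in every eye, in CPM on a log scale, with 1 point per library, a bar at the group median and grey lines joining the eyes of 1 mouse (7 mice at P20, 9 at P40). The groups overlap for all 9 genes. At P20 the lines of *Cdh1* and *Cldn3* slope down from control to Nrf2 eye in 6 of 7 mice and up in mouse 4, while *Ctnnb1* stays within 342 and 520 CPM.

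Nrf2 eyes were compared with control eyes of the same mice to ask whether the transgene altered junction gene expression. None of the 9 genes passed the threshold at P20 (adjusted p under 0.05 in edgeR's quasi-likelihood test, which called 3.41% of 16303 genes tested). *Cldn3* and *Tjp1* were lower at an unadjusted p under 0.05, 2 of 9, against 18.2% of all genes tested. DESeq2 called 1 of the 9 (*Cldn3*), against 12% of all genes, and limma voom with quality weights called 2 (*Tjp1* and *Cdh3*), against 16%. Without mice 3 and 4, edgeR called 1 of the 9 (*Cldn3*), against 4.58% of all genes. The median log2 fold change of the 9 genes was −0.27, beside −0.04 over all genes tested.

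Of the 9 genes, *Cldn3*, a sealing claudin, had the largest estimate at P20. Control eyes had 11.6 to 179 CPM (median 79.8, n = 7) and Nrf2 eyes 5.84 to 83.6 CPM (median 21.1, n = 7). The ranges overlapped, but 5 of the 7 Nrf2 eyes were at 22.5 CPM or less, and *Cldn3* was lower in the Nrf2 eye in 6 of 7 mice, with differences between eyes from −3.11 to 2.84 on the log2 scale. Mouse 4 was the exception, with 83.6 CPM in its Nrf2 eye and 11.6 CPM in its control eye. The fitted log2 fold change was −1.68 (SE 0.73, 95% confidence interval −3.34 to −0.02, adjusted p = 0.270). Without mouse 4 it was −2.19 (SE 0.39, adjusted p = 0.0129), and without mice 3 and 4 it was −2.25 (SE 0.46, adjusted p = 0.0441).

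E-cadherin differed in the same mice. *Cdh1* had 20.3 to 364 CPM in P20 control eyes (median 155) and 15.5 to 206 CPM in P20 Nrf2 eyes (median 41.7). In 5 Nrf2 eyes it was at or below 44.2 CPM, while mice 4 and 5 had 192 and 206 CPM there. It was lower in the Nrf2 eye in 6 of 7 mice, again with mouse 4 as the exception (log2 difference 3.23). The fitted change was −1.42 (SE 0.72, interval −3.07 to 0.23, adjusted p = 0.343). It passed the threshold without mouse 4 (−1.92, SE 0.37, adjusted p = 0.0163), but not without mice 3 and 4 (−1.83, adjusted p = 0.0578).

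For *Tjp1*, which encodes ZO-1, control eyes at P20 had 46.0 to 72.2 CPM (median 54.5) and Nrf2 eyes 34.3 to 70.0 CPM (median 43.7). The Nrf2 eye was lower in 6 of 7 mice, and the 1 that was higher was that of mouse 4. The fitted log2 fold change was −0.43 (SE 0.18, interval −0.85 to −0.01, adjusted p = 0.267). It came to −0.61 (adjusted p = 0.0139) without mouse 4 and to −0.60 (adjusted p = 0.0533) without mice 3 and 4. Occludin (*Ocln*), the companion of ZO-1 in the tight junction, had 17.8 to 71.5 CPM in control eyes and 26.6 to 53.7 CPM in Nrf2 eyes, where the estimate was −0.27 (SE 0.31, interval −0.97 to 0.43). It was −0.59 (SE 0.21, adjusted p = 0.161) without mice 3 and 4, and between −0.56 and −0.049 when 1 mouse was left out.

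P-cadherin had an estimate of the opposite sign. *Cdh3* had 74.3 to 163 CPM in P20 control eyes (median 121) and 111 to 226 CPM in P20 Nrf2 eyes (median 166). The Nrf2 eye had more in 4 of 7 mice, with log2 differences of 0.59 to 1.299 in those 4, and with log2 differences of −0.27 to −0.07 in the other 3. The log2 fold change was 0.46 (SE 0.22, interval −0.03 to 0.96, adjusted p = 0.306), and limma voom called it (0.70, adjusted p = 0.0392).

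*Ctnnb1*, which encodes β-catenin, was 342 to 499 CPM in control eyes and 448 to 520 CPM in Nrf2 eyes at P20. The Nrf2 eye had more in 6 of 7 mice, by small amounts (log2 fold change 0.17, SE 0.12, interval −0.10 to 0.44). *Cldn1* (0.20, interval −0.31 to 0.72), *Cdh2* (−0.12, interval −0.83 to 0.60) and *Cldn19* (−0.42, interval −2.42 to 1.58) did not pass the threshold either. The interval of *Cldn19* is wide. Its control eye of mouse 6 had 1 count, against 8.93 CPM or more in the other 6 control eyes. Without mice 3 and 4 the estimates were 0.51 for *Cdh3*, 0.15 for *Ctnnb1*, 0.19 for *Cldn1*, 0.028 for *Cdh2* and −0.26 for *Cldn19*, with adjusted p values of 0.313, 0.617, 0.778, 0.978 and 0.939.

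At P40, edgeR again called 0 of the 9 genes, against 4.57% of 16686 genes tested, and 0 of 9 had an unadjusted p under 0.05, against 13% of all genes. DESeq2 and limma voom called 0 as well, against 8.27% and 7.95% of all genes. Their median log2 fold change was −0.02, beside −0.03 over all genes tested. Intervals at P40 still allowed changes in several genes. That of *Cldn3* ran from −1.84 to 0.50 around −0.67, that of *Cdh1* from −1.74 to 1.27 around −0.23, and that of *Cdh2* from −0.07 to 0.82 around 0.38.

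The eyes of single mice were far apart in both directions at P40. Mouse 4 had 168 CPM of *Cdh1* in its control eye and 5.87 CPM in its Nrf2 eye, and mouse 6 had 103 and 6.25 CPM. In mouse 1 the control eye had 55.4 CPM and the Nrf2 eye 170 CPM, and in mouse 5 they had 43.8 and 111 CPM. In 6 of 9 mice the Nrf2 eye had more. *Cldn3* had the same 2 extremes, with 80.7 and 8.30 CPM in the control and Nrf2 eyes of mouse 4 and 93.5 and 8.44 CPM in those of mouse 6, and was lower in the Nrf2 eye in 6 of 9 mice. *Ocln* was lowest of all libraries in the Nrf2 eye of mouse 6, with 9.40 CPM against 51.02 CPM in its control eye.

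*Ctnnb1* gave the most even picture at P40. Control eyes had 218 to 381 CPM (median 341, n = 9) and Nrf2 eyes 229 to 492 CPM (median 401, n = 9). In 8 of 9 mice the Nrf2 eye had more, with mouse 6 as the exception (343 CPM in the control eye, 251 CPM in the Nrf2 eye). The log2 fold change was 0.23 (SE 0.14, interval −0.08 to 0.54, adjusted p = 0.609). Of the 9 mice, 7 had more *Cdh2* in the Nrf2 eye (adjusted p = 0.507). *Cdh3* (0.16, interval −0.44 to 0.76), *Cldn1* (−0.02, interval −0.52 to 0.48), *Tjp1* (0.10, interval −0.53 to 0.72), *Ocln* (−0.10, interval −0.86 to 0.65) and *Cldn19* (−0.04, interval −0.88 to 0.80) were closer to no change.

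The effect of Nrf2 at P40 was also compared with that at P20 in 1 model of all 32 eyes. Of the 9 genes, 0 passed the threshold (0.00557% of 17959 genes tested did) and 0 had an unadjusted p under 0.05 (2.39% of all genes did), and DESeq2 and limma voom called 0 of the 9, against 0.0668% and 0.00557% of all genes. The differences were largest for *Cdh1* (1.19, SE 1.08, interval −1.09 to 3.46) and *Cldn3* (1.01, SE 0.94, interval −0.96 to 2.98). Without P20 mice 3 and 4 they were 1.58 (SE 1.01) and 1.56 (SE 0.84), with an adjusted p of 0.9998 for each. A larger decrease at P20 than at P40 was therefore not shown for either gene.

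**Figure D2:**
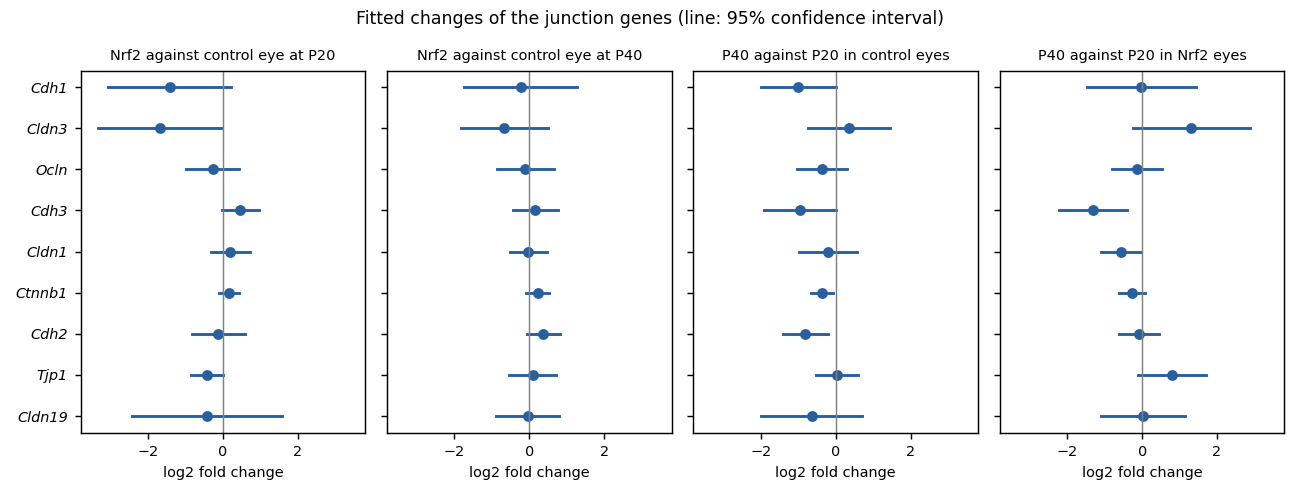
Fitted log2 fold change of each junction gene (points) with its 95% confidence interval (lines) in 4 comparisons, which set Nrf2 against control eyes at either age and P40 against P20 within each kind of eye. The widest interval is that of *Cldn19* with Nrf2 at P20 (−2.42 to 1.58), and that of *Ctnnb1* is narrow in all 4 panels.

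Control eyes at the 2 ages were compared to ask how the genes differed between P20 and P40. Names of all P20 libraries begin with M and those of all P40 libraries with A. Age therefore cannot be told apart from whatever these letters stand for. Without wild-type RPE, maturation and degeneration cannot be told apart either. By edgeR, 0 of the 9 genes passed the threshold, where 14.8% of 16832 genes tested did. The number behind that share, 2483, depended on which mice were included. It was 158 of 17254 (0.916%) without P20 mice 3 and 4, where again 0 of the 9 passed, and between 473 and 4273 when 1 mouse was left out. An unadjusted p under 0.05 was reached by 2 of the 9, *Ctnnb1* and *Cdh2*, both lower at P40, against 35.2% of all genes. DESeq2 called *Ctnnb1* and *Cdh2*, against 25.9% of all genes, and limma voom called *Ctnnb1* and *Cdh3*, against 22.3%, each of them lower. All 4 cadherin and catenin genes had negative estimates, and the median of the 9 genes was −0.37, while that of all genes tested was −4.61e-05.

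N-cadherin came closest to the threshold. *Cdh2* had 12.7 to 57.2 CPM in P20 control eyes (median 23.9) and 8.54 to 25.6 CPM in P40 control eyes (median 16.4). The groups overlapped, and the 2 highest P20 eyes (57.2 CPM in mouse 1 and 53.2 CPM in mouse 4) were above all P40 eyes. The log2 fold change was −0.81 (SE 0.28, interval −1.41 to −0.21, adjusted p = 0.0597), and −0.69 (adjusted p = 0.158) without mice 3 and 4.

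β-catenin had a smaller and more even difference. *Ctnnb1* was 342 to 499 CPM in P20 control eyes (median 419) and 218 to 381 CPM in P40 control eyes (median 341). At P20, 6 of 7 control eyes had at least 393 CPM, above all 9 of the P40 control eyes, and the other, that of mouse 4, had 342 CPM. The log2 fold change was −0.36 (SE 0.14, interval −0.65 to −0.08, adjusted p = 0.0730), and −0.38 (adjusted p = 0.148) without P20 mice 3 and 4.

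*Cdh3* and *Cdh1* had larger estimates with larger errors. *Cdh3* lay between 74.3 and 163 CPM in the P20 eyes (median 121) and between 16.2 and 214 CPM in the P40 eyes (median 33.6). Of the 9 control eyes at P40, 7 were below every P20 control eye, at 55.5 CPM or less, while mice 1 and 9 had 214 and 118 CPM. Its estimate was −0.94 (SE 0.46, interval −1.90 to 0.02, adjusted p = 0.148), and without P40 mouse 1 it was −1.47 (SE 0.35, adjusted p = 0.0109). In the other fits that left out 1 mouse it lay between −1.14 and −0.82 and did not pass, and it was −0.73 (adjusted p = 0.271) without P40 mice 3 and 8 and −0.92 (adjusted p = 0.263) without P20 mice 3 and 4. The median of *Cdh1* was 155 CPM in P20 eyes, against 79.6 CPM in P40 eyes (−0.998, SE 0.48, interval −2.003 to 0.007, adjusted p = 0.145), and its estimate was −1.17 (adjusted p = 0.123) without P20 mice 3 and 4. The tight junction genes *Ocln* (−0.37), *Cldn1* (−0.20), *Cldn19* (−0.64), *Tjp1* (0.02) and *Cldn3* (0.35) had intervals that held 0.

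In Nrf2 eyes, age was tested in the same way. Again 0 of the 9 genes passed edgeR's threshold, which called 0.502% of 16745 genes tested. *Cdh3* and *Cldn1* were lower at an unadjusted p under 0.05, 2 of 9, against 25.8% of all genes. DESeq2 called *Cdh3*, against 10.5% of all genes, and limma voom called *Cdh3* and *Cldn1*, against 13.2%. *Cdh3* lay between 111 and 226 CPM in P20 eyes (median 166) and between 9.28 and 143 CPM in P40 eyes (median 47.3), with 6 of the 9 P40 eyes at 60.1 CPM or less. Its log2 fold change was −1.32 (SE 0.43, interval −2.22 to −0.41, adjusted p = 0.110). *Cldn1* lay between 329 and 656 CPM in P20 eyes (median 525.8) and between 165 and 556 CPM in P40 eyes (median 358), a log2 fold change of −0.56 (SE 0.25, interval −1.09 to −0.04, adjusted p = 0.168). Without P20 mice 3 and 4 the estimates were −1.33 for *Cdh3* and −0.51 for *Cldn1* (adjusted p = 0.238 and 0.328).

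In those eyes *Cldn3* (1.31, SE 0.74, interval −0.25 to 2.87) and *Tjp1* (0.80, SE 0.43, interval −0.10 to 1.70) had positive estimates. *Tjp1* at P40 was high in the Nrf2 eyes of mice 3, 6 and 8 (185, 148 and 121 CPM) and at 51.7 CPM or less in the other 6. Both libraries of mice 3 and 8 stood apart from the rest at P40 in several of these genes. Without these mice the estimate was 0.27 for *Tjp1*, −1.07 for *Cdh3* and 0.74 for *Cldn3* (adjusted p = 0.727, 0.236 and 0.574). In control eyes, the estimate of *Tjp1* then went from 0.02 to −0.43 (adjusted p = 0.106).

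*Cdh1*, *Cldn3* and *Ocln* varied together with the markers of the ocular surface epithelium across libraries, whereas *Cdh3* and *Cldn1* had values near 0. Over the 32 libraries, log2 levels of *Cdh1* correlated with the summed surface epithelium markers with a Pearson's r of 0.92 (Spearman's rho 0.86), those of *Cldn3* with 0.89 (0.91) and those of *Ocln* with 0.79 (0.78). Values for the others were 0.24 for *Ctnnb1*, 0.01 for *Tjp1*, −0.07 for *Cldn1*, −0.08 for *Cdh3*, −0.39 for *Cldn19* and −0.63 for *Cdh2*. These are descriptions across libraries that share a mouse with another library, and all levels are shares of the same library totals. Single markers varied more. Among *Krt5*, *Trp63*, *Krt12* and *Epcam*, r was 0.75 (*Krt12*) to 0.94 (*Krt5*) for *Cdh1*, 0.66 (*Krt12*) to 0.97 (*Epcam*) for *Cldn3* and 0.57 (*Epcam*) to 0.83 (*Krt5*) for *Ocln*. The summed RPE markers gave −0.50 with *Cdh1*, −0.24 with *Cldn3* and −0.64 with *Ocln*, while *Rpe65* alone gave 0.12, 0.24 and −0.11 and *Rlbp1* alone −0.089, −0.10 and −0.17. That sum was mainly *Ttr* and *Rgr*, with medians of 7685.5 and 5261 CPM over all libraries.

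The extremes show the range. The Nrf2 eyes of P40 mice 6 and 4 had the lowest sums of surface epithelium markers, 422 and 820 CPM, and the lowest *Cdh1* of all libraries, 6.25 and 5.87 CPM. In them *Cdh3* had 23.3 and 60.1 CPM and *Cldn1* 171 and 434 CPM, so that levels of *Cdh3* were above those of *Cdh1* there. The highest sums were in the control eyes of P40 mouse 8 (55368 CPM) and P20 mouse 6 (54737 CPM). *Cdh1* was at its highest of 364 CPM in the latter, and at 100.4 CPM in the former, where *Cldn3* had 239 CPM and *Cdh3* 16.2 CPM.

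**Figure D3:**
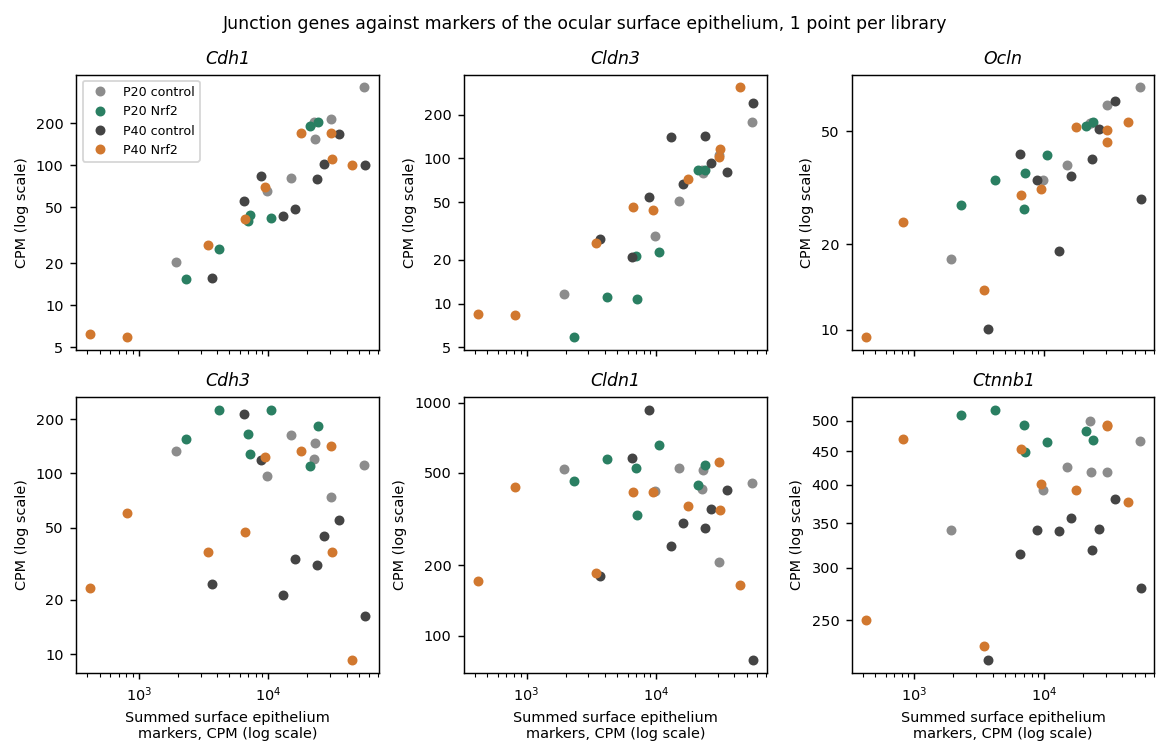
Level of 6 junction genes against the summed level of 8 surface epithelium markers, both in CPM on log scales, with 1 point per library and colours for the 4 groups. Points of *Cdh1*, *Cldn3* and *Ocln* climb with the markers (r of 0.92, 0.89 and 0.79 over 32 libraries), and those of *Cdh3* and *Cldn1* do not (−0.08 and −0.07).

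Within mice, the difference between both eyes was set against that in the markers. At P20 the surface epithelium markers were lower in the Nrf2 eye in 6 of 7 mice, with log2 differences of −2.96 to −0.35, and higher in mouse 4, with a log2 difference of 3.44. The difference in *Cdh1* between the eyes followed that in the markers with r = 0.97 over 7 mice at P20 and 0.97 over 9 mice at P40. For *Cldn3* these values were 0.98 and 0.95, and for *Ocln* 0.94 and 0.92. With the 2 mice farthest from the median of the markers left out, they were 0.78 and 0.89 for *Cdh1*, 0.92 and 0.81 for *Cldn3*, and 0.54 and 0.65 for *Ocln*. *Tjp1* followed the markers at P20 (0.81), but not once 2 mice were left out (−0.10), nor at P40 (−0.24). *Cdh3* gave −0.21 at P20 and 0.25 at P40, and *Cldn1* −0.0066 and 0.17, but with 2 mice left out they were 0.82 and −0.33 for *Cdh3* and 0.80 and −0.67 for *Cldn1*, over 5 and 7 mice. All 8 surface epithelium markers had negative log2 fold changes with Nrf2 at both ages (medians −1.44 at P20 and −0.68 at P40), with 0 of 8 past the threshold and 2 and 0 at an unadjusted p under 0.05. Without P20 mice 3 and 4, 3 of the 8 passed at P20, all of them lower.

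When the log2 level of these markers was added to the model as a covariate, a setting chosen after seeing the data, the Nrf2 estimates of the 3 genes moved most. At P20, *Cdh1* went from −1.42 to −0.21 (SE 0.19), *Cldn3* from −1.68 to −0.50 (SE 0.17) and *Ocln* from −0.27 to 0.15 (SE 0.14), with adjusted p values of 0.667, 0.209 and 0.682. Their standard errors shrank too, from 0.72 to 0.19 for *Cdh1*. The 3 genes were those most correlated with these same markers. Their larger moves and smaller errors follow largely from that correlation and are not a separate result. At P40, *Cdh1* went from −0.23 to 0.33, *Cldn3* from −0.67 to −0.09 and *Ocln* from −0.10 to 0.27. *Cdh3* stayed near its first estimate, at 0.42 for P20 and 0.24 for P40. In the comparisons of ages the 3 genes were not, as a set, the ones that moved most. In control eyes *Cdh1* went from −0.998 to −0.69, a larger move than that of *Cdh3*, from −0.94 to −1.11. *Ocln* moved less than *Cdh3* there, from −0.37 to −0.29. In Nrf2 eyes *Cldn19* moved most, from 0.025 to −0.23. The estimates of *Cldn3* for age with the covariate are not given here. Among control eyes of both ages, *Cdh2* (−0.72, adjusted p = 0.0290) and *Ctnnb1* (−0.36, adjusted p = 0.0438) then passed the threshold. Over the whole table that fit called 3317 genes, against 2483 of 16832 tested (14.8%) without the covariate, so many other genes passed as well. The level of these markers may itself differ with the treatment, and its part in the differences was not tested beyond this fit.

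**Figure D4:**
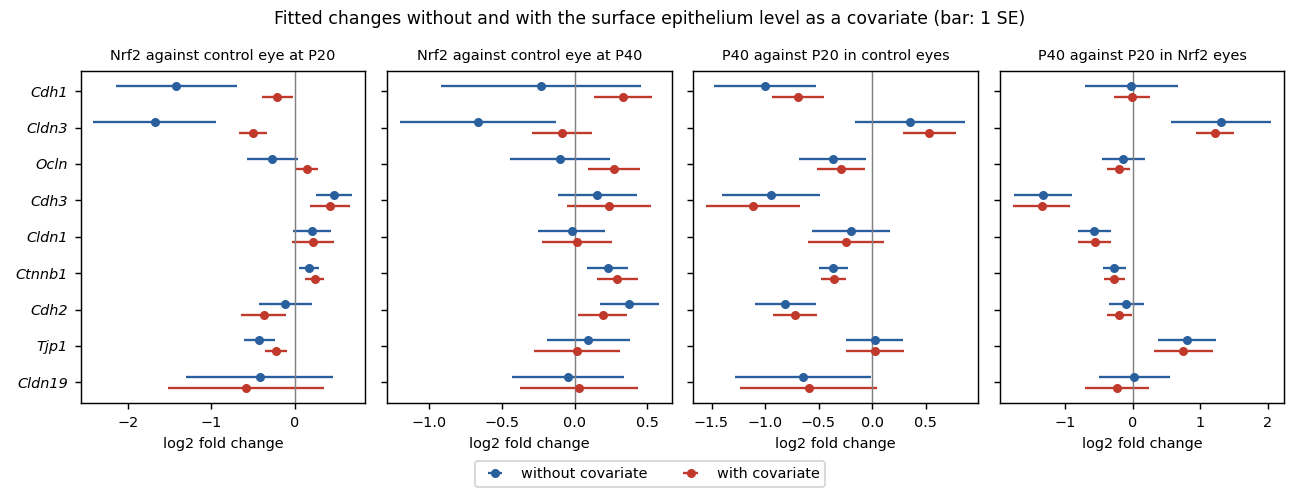
Log2 fold change of the 9 junction genes (points, with bars of 1 SE) without and with the summed level of surface epithelium markers as a covariate, in 4 comparisons whose axes differ. At P20 the points of *Cdh1* and *Cldn3* move from −1.42 and −1.68 to −0.21 and −0.50, and those of *Cdh3*, *Cldn1* and *Ctnnb1* hardly move.

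Among themselves, the 9 genes were close in some pairs across the 32 libraries. *Cdh1* was most like *Ocln* (r = 0.84) and *Cldn3* (0.79), and *Cdh3* was most like *Cldn1* (0.82), with *Ctnnb1* near both of the latter (0.59 and 0.60). The highest value of *Ctnnb1* was with *Ocln* (0.63). *Cldn1* and *Tjp1* were opposed (−0.70), as were *Cldn3* and *Cdh2* (−0.70). The 2 cadherins that lie side by side on chromosome 8, *Cdh3* (106510891 to 106557297) and *Cdh1* (106603351 to 106670246, GRCm38, both on the plus strand), had an r of only 0.17.

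Over all 11791 genes compared, the nearest profiles were those of *Cmah* (0.98) and *Tmem30b* (0.97) for *Cdh1*, *Ly6e* (0.97) and *Smagp* (0.97) for *Cldn3*, and *Actr3* (0.95) and *Sdr42e1* (0.95) for *Ocln*. For *Cdh3* they were *Galnt10* (0.97) and *Impad1* (0.97), and for *Cldn1* they were *Slc30a5* (0.95) and *Clic6* (0.94). The others were less close, with *Nup62* (0.91) and *Nck2* (0.91) for *Ctnnb1*, *Zic4* (0.92) and *Mfap4* (0.92) for *Cldn19*, *Fam171b* (0.89) and *Car8* (0.88) for *Cdh2*, and *Trim28* (0.88) and *Zfp91* (0.87) for *Tjp1*. *Cdh2* and *Cldn19* had their highest values among the marker lists with the summed Müller glia list (0.73 and 0.77). That sum was mainly *Dkk3* and *Glul*, with medians of 1056 and 402 CPM over all libraries. *Slc1a3*, *Gfap*, *Aqp4* and *Kcnj10* had medians of 33.9, 22.3, 8.23 and 1.58 CPM. Values of r with single markers of this list are not given.

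**Figure D5:**
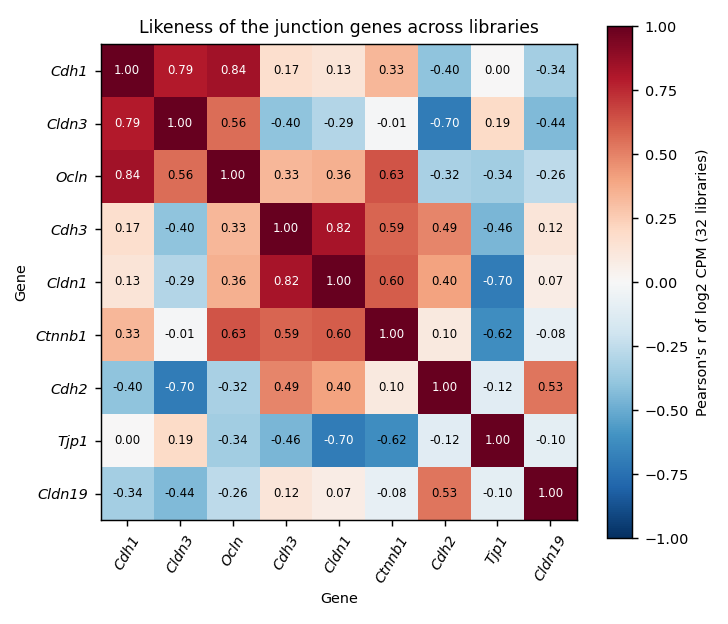
Pearson's r between log2 levels of each pair of junction genes over 32 libraries. *Cdh1*, *Cldn3* and *Ocln* form one block (0.56 to 0.84), and *Cdh3*, *Cldn1* and *Ctnnb1* another (0.59 to 0.82), with *Ctnnb1* also close to *Ocln* (0.63).

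Because *Cldn3* and *Ocln* followed the surface epithelium markers (r of 0.89 and 0.79) while *Cldn1* did not (−0.07), the windows around their starts were set side by side. Between the genes, r was 0.56 for *Cldn3* with *Ocln* and 0.36 for *Cldn1* with *Ocln*. *Ctnnb1*, which is not printed, had 0.63 with *Ocln*. Of the 9 genes, 6 were matched in the table of RefSeq windows used here (GRCm38.p6), namely *Cldn19*, *Cldn3*, *Tjp1*, *Ctnnb1*, *Ocln* and *Cldn1*. The windows run from 250 bases before to 50 bases after the annotated start. Capitals mark a match to CACCTG on either strand, the E-box that the cadherin repressors of the Snail and Zeb families can bind.
*Cldn3*, chr5:134985964-134986263, plus strand: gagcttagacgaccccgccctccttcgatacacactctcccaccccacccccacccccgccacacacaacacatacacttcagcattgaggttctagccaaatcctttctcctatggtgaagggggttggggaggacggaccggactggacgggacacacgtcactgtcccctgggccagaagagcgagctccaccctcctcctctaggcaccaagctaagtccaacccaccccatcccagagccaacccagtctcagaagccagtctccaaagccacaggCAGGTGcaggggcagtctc
*Ocln*, chr13:100552669-100552968, minus strand: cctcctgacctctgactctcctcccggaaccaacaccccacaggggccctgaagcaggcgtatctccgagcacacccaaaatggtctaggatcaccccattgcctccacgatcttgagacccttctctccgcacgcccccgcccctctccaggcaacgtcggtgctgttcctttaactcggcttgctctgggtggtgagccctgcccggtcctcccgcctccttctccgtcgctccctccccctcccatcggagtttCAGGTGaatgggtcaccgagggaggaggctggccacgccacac
*Cldn1*, chr16:26371790-26372089, minus strand: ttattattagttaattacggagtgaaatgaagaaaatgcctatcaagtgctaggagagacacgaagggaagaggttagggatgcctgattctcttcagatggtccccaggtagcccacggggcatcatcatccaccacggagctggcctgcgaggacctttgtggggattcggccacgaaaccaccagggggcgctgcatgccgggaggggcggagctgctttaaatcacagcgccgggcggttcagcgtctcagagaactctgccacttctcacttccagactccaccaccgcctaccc
The E-box lay 32 bases into the transcript in *Cldn3* and 8 bases into it in *Ocln*, and there was none in the *Cldn1* window. It was in 20.21% of all 32851 windows, so that these matches are a description only. Neither an antioxidant response element, the site of Nrf2 (TGACNNNGC, in 12.39% of windows), nor a Grainyhead-like site (AACNGGTT, in 2.09%) was found in the 3 windows on either strand. A second window of *Ocln* held the same E-box and 1 more. A window of *Ctnnb1* held a match to the antioxidant response element that begins at position −71 from the start. No E-box was found in the windows of *Ctnnb1*, *Tjp1* and *Cldn19*. Whether the E-box has any part in these levels was not tested.

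The repressors themselves did not pass the test. Of *Snai1*, *Snai2*, *Zeb1*, *Zeb2*, *Twist1* and *Twist2*, 5 were tested at P20 and 4 in the other 3 comparisons of groups, and 0 passed the threshold in any of these. Their median log2 fold change was −0.07 with Nrf2 at P20, 0.07 with Nrf2 at P40 and 0.20 with age in control eyes.

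The partners of the 9 genes were counted from lists of 83 further genes, whose lists were drawn up by function. With Nrf2 at P20, edgeR called 0 of 16 adherens junction partners, 2 of 20 tight junction partners tested of 21 listed (both lower), 2 of 17 polarity genes (both higher), 1 of 15 genes of the actomyosin belt (higher) and 0 of 8 desmosome and gap junction genes, where 3.41% of all genes tested were called. Without mice 3 and 4 these counts were 0, 5 (2 higher, 3 lower), 1, 2 and 0, where 4.58% of all genes were called. At P40 edgeR called 3 of 20 tight junction partners, 2 higher and 1 lower, 1 of 15 actomyosin genes (higher) and 0 of the 16, 17 and 8 genes of the other lists, where 4.57% of all genes were called. The median log2 fold changes at P20 were −0.30, −0.44, −0.20, −0.02 and −0.85, in the order of the lists as first given, and at P40 they were 0.10, −0.25, −0.01, 0.12 and −0.43.

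Claudin-2 passed at both ages. *Cldn2*, a claudin that forms pores rather than seals, had 125 ± 42.2 CPM (SD, n = 7) in P20 control eyes and 47.5 ± 22.7 CPM in their Nrf2 partners (log2 fold change −1.45, SE 0.21, adjusted p = 0.0131), and it was lower in the Nrf2 eye in all 7 mice. Without mice 3 and 4 it was −1.64 (adjusted p = 0.0176), and it passed in 6 of the 7 fits that left out 1 mouse. At P40 it had 94.7 ± 73.3 CPM in control eyes and 28.5 ± 18.96 CPM in Nrf2 eyes (n = 9 each, −1.76, SE 0.27, adjusted p = 0.00252), and was lower in all 9 mice. The ranges of the groups overlapped at both ages. *Rock2*, the kinase that activates myosin in the belt, rose from 79.3 ± 12.8 to 186 ± 45.8 CPM at P20 (1.17, adjusted p = 0.00921) and from 94.6 ± 32.1 to 184 ± 36.8 CPM at P40 (0.96, adjusted p = 0.00941). It passed in every fit that left out 1 mouse at either age, and at 1.305 (adjusted p = 0.00799) without P20 mice 3 and 4.

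*Cgn*, the tight junction protein cingulin that binds ZO-1 and myosin, fell at P20 from 55.4 ± 10.8 to 28.6 ± 9.04 CPM (−1.02, adjusted p = 0.0374), and only 1 of 7 mice had more of it in the Nrf2 eye. It was −1.29 (adjusted p = 0.00740) without mice 3 and 4, but passed in only 1 of the 7 fits that left out 1 mouse. The polarity scaffolds *Mpp5* (0.67, adjusted p = 0.0283) and *Patj* (0.51, adjusted p = 0.0424) rose at P20, and passed in 1 and 2 of those 7 fits. Without mice 3 and 4 they had 0.75 (adjusted p = 0.0251) and 0.49 (adjusted p = 0.0746). *Cldn10*, another pore-forming claudin, rose at P40 from 7.76 ± 7.77 to 26.7 ± 18.01 CPM (2.07, SE 0.52, adjusted p = 0.0423), and all 9 mice had more of it in the Nrf2 eye. It passed in 4 of the 9 fits that left out 1 mouse, and not without mice 3 and 8 (1.69, adjusted p = 0.0736). *Cldn11*, a claudin of myelin and other barriers whose mean level was too low for the rule that chose these names, was the other one that rose at P40 (3.32, SE 0.72, adjusted p = 0.0188), and it is named after its values were seen. Surface epithelium markers were lower in the Nrf2 eye in 6 of 7 mice at P20, and at P40 their median log2 fold change was −0.68. Covariate fits with these markers are not reported for these genes, and the part of the markers in the differences was not assessed.

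With age in control eyes, 5 of 16 adherens junction partners passed the threshold (1 higher, 4 lower), as did 1 of 20 tight junction, 3 of 17 polarity, 2 of 15 actomyosin and 1 of 8 desmosome and gap junction genes, all of these lower, where 14.8% of all genes tested were called. Without P20 mice 3 and 4 the counts were 1 of 16 and 0 in the other 4 lists, where 0.916% of all genes were called. *Vcl*, which encodes the actin-linking vinculin, fell from 105 ± 22.7 CPM (n = 7) to 50.4 ± 17.2 CPM (n = 9), a log2 fold change of −1.03 (adjusted p = 0.0114). The polarity genes *Llgl1* (−1.13, adjusted p = 0.0344) and *Prkci* (−1.04, adjusted p = 0.0468) and the gap junction gene *Gja1* (−1.05, adjusted p = 0.0423) fell, and *Afdn*, the afadin scaffold, rose (1.28, adjusted p = 0.0410). Without P20 mice 3 and 4, only *Vcl* of these 12 genes still passed (−1.09, adjusted p = 0.0386). *Llgl1*, *Prkci*, *Gja1* and *Afdn* then had estimates of −1.14, −1.12, −1.06 and 1.16 (adjusted p = 0.0951, 0.0992, 0.109 and 0.129). When 1 mouse was left out, *Vcl* passed in 16 of 16 fits, *Llgl1* and *Gja1* in 6, *Afdn* in 5 and *Prkci* in 3. The others that fell with all mice in, named after their values were seen, were *Ctnnd1*, *Arvcf* and *Nectin1* (−0.89, −1.01 and −0.78) in the adherens junction, *Magi3* (−0.69) in the tight junction, *Pard3* (−0.89) among the polarity genes, and *Myh10* (−0.67) and *Shroom2* (−0.61) in the actomyosin belt. In Nrf2 eyes with age, and for the Nrf2 effect between ages, 0 of these genes were called by edgeR.

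Markers of other cell types moved in the same libraries. Cone markers had negative estimates in 6 of 6 genes with Nrf2 at both ages (2 and 6 called lower), rod markers in 7 of 7 (0 and 2 called lower) and RPE markers in 7 of 9 (1 and 5 called lower). Summed RPE markers were 5278 to 26366 CPM in P20 control eyes (median 15744) and 11993 to 29748 CPM in P20 Nrf2 eyes (median 18012). At P40 they were 11478 to 68922 CPM in control eyes (median 36692.5) and 12727 to 71235 CPM in Nrf2 eyes (median 20276). These sums were mainly *Ttr* and *Rgr*, so they do not stand for each RPE gene. The RPE marker called lower at P20 was *Rpe65* (−2.17, adjusted p = 0.0198), which passed in 2 of 7 fits that left out 1 mouse. Those called lower at P40 were *Rpe65* (−2.82), *Lrat* (−1.80), *Rgr* (−1.43), *Rlbp1* (−1.18) and *Rdh5* (−1.055). Macrophage markers had 3 of 6 genes higher with Nrf2 at P40 and fibroblast markers 1 of 6, with 0 called at P20. For Müller glia, endothelium, melanocytes and muscle, 0 genes were called with Nrf2 at either age, and 1 of 6 Müller glia markers was higher at P20 without mice 3 and 4. With age in control eyes, 4 of 6 fibroblast markers were lower (1 of 6 without P20 mice 3 and 4), beside the values of *Cdh2* and *Vcl* given above. The part of these other cells in the junction gene values was not tested.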

How the data were processed

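RNA from the RPE of both eyes of 16 mice was amplified by the authors and sequenced, giving 32 libraries. The authors deposited estimated counts for each gene as whole numbers without normalization. The labels name Salmon 0.9.1 and FastQC; the methods name mm10 and Ensembl transcripts for a separate alignment with STAR, the transcript set given to Salmon is not given in the sources used here, and 2 sequencing runs are mentioned without libraries assigned to them. Identifiers were matched to GENCODE for GRCm38 (34402 of 34453 rows had a symbol), and 4268 rows held no count. Totals of 16548332 to 50542797 set the floor of 3 counts at 0.0565 to 0.182 CPM, and such floors cover counting error only, since amplified reads carry no molecular identifiers.

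The whole table was fitted with edgeR 4.0.16 under R 4.3.3 (filterByExpr, TMM, quasi-likelihood test without robust dispersion, Benjamini-Hochberg adjustment, threshold 0.05). The mouse was a block between eyes, and no block was used between ages, which were different mice. Log2 levels had a prior count of 2. The pairing comes from the labels and methods. Across genes, deviations of same-mouse eyes from their group means had an average correlation of −0.0256 (P20) and 0.139 (P40), and those of different mice 0.0044 and −0.0018. The fits were tested on simulated data. Alternatives were DESeq2 1.42.0, limma 3.58.1 (voom with quality weights), RLE normalization, no filter, a threshold of 0.1, no block, 1 fit over all eyes, leaving out each mouse, and leaving out P20 mice 3 and 4. Added after seeing the data were the surface epithelium covariate and leaving out P40 mice 3 and 8. Members, gene lists and marker lists were chosen with earlier results of these data known. Named were the 9 members and, in each comparison, up to 4 increases and 4 decreases of other junction genes past the threshold with a mean log2 CPM of at least 2, beside the 2 genes most like each member. The labels give separate mice but not litters. The result of 1 marker list is not reported here.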

Additional observations from a re-analysis of the deposited data

Results flagged for a closer look

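Of 36 groups of eyes examined (9 genes in 4 groups), 3 had a library far from the others by Dixon's criterion, where chance flags about 1 in 20 groups. *Cdh2* had 8.54 CPM in the P40 control eye of mouse 8, and the next lowest control eye had 15.5 CPM. *Cldn1* had 206 CPM in the P20 control eye of mouse 5, and the next lowest had 416 CPM. *Cldn19* had 0.0416 CPM in the P20 control eye of mouse 6, which is 1 count and at the floor, and the next lowest had 8.93 CPM.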

How the results depend on the processing

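The numbers of junction genes called by edgeR at P20, with Nrf2, moved from 0 to 1 with DESeq2, 2 with limma voom and 1 without P20 mice 3 and 4, and ranged from 0 to 3 when each mouse was left out in turn, with 3 (*Cdh1*, *Tjp1* and *Cldn3*) without mouse 4. Calls over all genes moved there from 556 to 1951, 2605 and 759 in the same settings. They ranged from 111 to 1999 when each mouse was left out, and the total without mouse 4 alone is not given here. With age in control eyes the junction genes called moved from 0 to 2 with DESeq2, 2 with limma voom, 2 with the surface epithelium covariate and 2 at an adjusted p under 0.1, and ranged from 0 to 2 when each mouse was left out. Calls over all genes moved there from 2483 to 4362 with DESeq2, 3747 with limma voom and 3317 with the covariate, and ranged from 473 to 4273 when each mouse was left out. *Cdh2* passed without P20 mouse 6 (−0.95, adjusted p = 0.0413), without P40 mouse 1 (−0.86, adjusted p = 0.0425, where *Cdh3* also passed) and without P40 mouse 9 (−0.92, adjusted p = 0.0426). With age in Nrf2 eyes the junction genes called moved from 0 to 1 with DESeq2 and 2 with limma voom, and calls over all genes from 84 to 1762 and 2213. All other settings gave 0, and leaving out each mouse gave 0 to 0 for Nrf2 at P40, for age in Nrf2 eyes and for the Nrf2 effect between the ages. With no replicate block, 0 junction genes were called at P20, at P40 and for the difference between the ages, so the pairing of eyes changed no call. The cause of these moves was not tested.

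Of 342 estimates under settings other than leaving out 1 mouse, 303 kept their direction and call, 13 passed the threshold newly, and 26 changed sign, all of them below the threshold before and after. With Nrf2 at P20 these were *Cdh2* without mice 3 and 4 (0.028) and *Ocln* with the covariate (0.15). With Nrf2 at P40 they were *Tjp1* (−0.053), *Cldn1* (0.0060) and *Cldn19* (0.10) with voom, *Cldn19* with no replicate block (0.11), *Cldn1* in 1 fit over all eyes (0.019), *Cdh1* (0.33), *Ocln* (0.27), *Cldn1* (0.015) and *Cldn19* (0.032) with the covariate, and *Tjp1* without P40 mice 3 and 8 (−0.021). With age in control eyes they were *Tjp1* with voom (−0.41), no filter (−0.074), without P20 mice 3 and 4 (−0.067) and without P40 mice 3 and 8 (−0.43), and *Cldn1* in the last (0.0098). With age in Nrf2 eyes they were *Cdh1* with voom (0.032), without P20 mice 3 and 4 (0.26) and without P40 mice 3 and 8 (0.024), *Tjp1* with voom (−0.27), and *Cldn19* with voom (−0.21), the covariate (−0.23) and without P40 mice 3 and 8 (−0.51). For the difference between the ages they were *Ocln* (−0.067) and *Cldn19* (−0.040) without P40 mice 3 and 8.

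Leaving out each mouse also changed the sign of some estimates near 0. With Nrf2 the ranges were −0.33 to 0.10 for *Cdh2* at P20, and at P40 −0.51 to 0.18 for *Cdh1*, −0.040 to 0.30 for *Cdh3*, −0.15 to 0.10 for *Cldn1*, −0.25 to 0.21 for *Cldn19*, −0.28 to 0.15 for *Ocln* and −0.12 to 0.24 for *Tjp1*. With age they were −0.16 to 0.089 for *Tjp1* in control eyes, and in Nrf2 eyes −0.28 to 0.41 for *Cdh1*, −0.25 to 0.011 for *Cdh2* and −0.64 to 0.17 for *Cldn19*. For *Ocln* the difference between the ages was −0.030 to 0.45. Every member but *Cldn19* had at least 141 counts in every library, so counting error was small beside the spread between eyes. The low *Cldn19* counts (1 in P20 control mouse 6, 12 or more elsewhere) limit its estimates.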
